A study of Homo sapiens with 6 samples.

Results

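The snoRNA host genes and abundant long noncoding RNAs were examined in mRNA-seq libraries of Kasumi-1 cells, a human acute myeloid leukemia line that carries the RUNX1-RUNX1T1 fusion. Members were chosen by name and not by their values. They are the genes whose symbol is SNHG followed by a number, the hosts GAS5, DANCR, EPB41L4A-AS1 and ZFAS1, and the long noncoding RNAs NEAT1, MALAT1, NORAD, TUG1, MEG3, HOTAIRM1, OIP5-AS1, KCNQ1OT1, MIAT and PVT1. Of the 29810 genes in the table, 39 were members, namely 30 snoRNA hosts and 9 other long noncoding RNAs. MEG3 was not analysed here. The comparison was between 3 libraries of cells incubated with 0.25 μM I3 for 48 h and 3 libraries of control cells kept for the same time. Compound and time follow the labels, but the deposited table is named for I13 and one legend of the study gives a longer time, and the values do not settle either. I3 is a histone deacetylase inhibitor (HDACi), and all 6 libraries came from this 1 cell line. The labels number the libraries but do not say whether they came from separate cultures, so the p-values measure the spread between these libraries, which may be technical.

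Small nucleolar RNAs (snoRNAs) guide the chemical modification of ribosomal and spliceosomal RNA. In human cells most of them are cut out of the introns of host genes, whose spliced exons are exported and often degraded by nonsense-mediated decay. Several hosts start with an oligopyrimidine tract (TOP), the start also found in the genes of ribosomal proteins. The other members act as RNA themselves. NEAT1 is the scaffold of paraspeckles, MALAT1 lies in nuclear speckles, and NORAD is a cytoplasmic RNA that binds Pumilio proteins.

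The starts of the hosts were read from RefSeq on GRCh38.p14, in which 26 of the 30 hosts and 5 of the 9 other members had a promoter window. A TOP start was counted where the first base was C and at least 4 further bases in a row were C or T. It was found in 6 of 26 host windows, in 0 of 6 windows of the other members, and in 4.07% of all 35116 windows. These 6 hosts are shown with DANCR and GAS5, which were among the 3 hosts with the highest level and had no such start in RefSeq. Each sequence holds 40 bases before the first base of the RNA and 40 from it on, 5′ to 3′ on the strand of the gene. Capitals mark the pyrimidine run or, without one, the first base.

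SNHG32 (chr6:31834876-31834955, plus strand): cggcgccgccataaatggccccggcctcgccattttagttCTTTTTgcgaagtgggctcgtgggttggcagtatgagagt
SNHG5 (chr6:85678694-85678773, minus strand): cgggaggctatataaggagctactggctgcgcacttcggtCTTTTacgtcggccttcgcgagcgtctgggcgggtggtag
SNHG4 (chr5:139274061-139274140, plus strand): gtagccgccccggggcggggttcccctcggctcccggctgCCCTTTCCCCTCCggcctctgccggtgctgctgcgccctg
SNHG12 (chr1:28581834-28581913, minus strand): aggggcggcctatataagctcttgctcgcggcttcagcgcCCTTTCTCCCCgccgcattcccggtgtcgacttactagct
SNHG19 (chr16:2155319-2155398, minus strand): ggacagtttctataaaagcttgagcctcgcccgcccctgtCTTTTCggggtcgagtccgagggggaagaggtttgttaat
ZFAS1 (chr20:49278602-49278681, plus strand): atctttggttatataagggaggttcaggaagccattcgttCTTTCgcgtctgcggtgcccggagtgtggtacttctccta
DANCR (chr4:52712354-52712433, plus strand): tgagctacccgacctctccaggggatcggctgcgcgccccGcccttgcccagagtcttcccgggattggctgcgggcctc
GAS5 (chr1:173869006-173869085, minus strand): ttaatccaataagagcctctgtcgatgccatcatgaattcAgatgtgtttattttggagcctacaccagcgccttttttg

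The runs were 5 to 13 bases long. The starts of SNHG12 and ZFAS1 lay 1110 and 464 bases inside their RefSeq genes, so the match depends on the start that RefSeq lists. The same holds for the lack of a match in GAS5. Its RefSeq start is base 173869045, upstream of the GENCODE 29 gene, whose 5′ end is base 173868882. The GAS5 bases shown thus lie outside the gene behind its FPKM, and the GENCODE start was not searched. Motifs were searched in the whole 300-base windows on both strands. The E-box CACGTG was in 2 of 26 host windows and 3 of 6 windows of the other members, against 7.26% of all windows. The cyclic AMP response element TGACGTCA was in 0 of 26 and 0 of 6, against 1.85%. The letters TGTGGT of the RUNX motif were in 4 of 26 and 1 of 6, against 13.1%. These are matches of letters and not sites of binding.

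In the libraries, 29 members passed the minimum for testing, a mean of at least 0.5 FPKM over the 6 libraries. FPKM counts the fragments of a gene relative to its exon length and to all counted fragments of the library. These were 23 hosts and 6 of the other members, and together all 39 members held 0.337% of the counted reads. The tested members ranged from 1.95 FPKM for SNHG20 to 230.3 FPKM for DANCR, the host of SNORA26. Of the 29, 21 lay above the median of the 12960 tested genes and 9 above their 90th percentile. The hosts were led by few genes, as the 5 highest held 69.0% of the summed FPKM of all hosts.

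**Figure D1:**
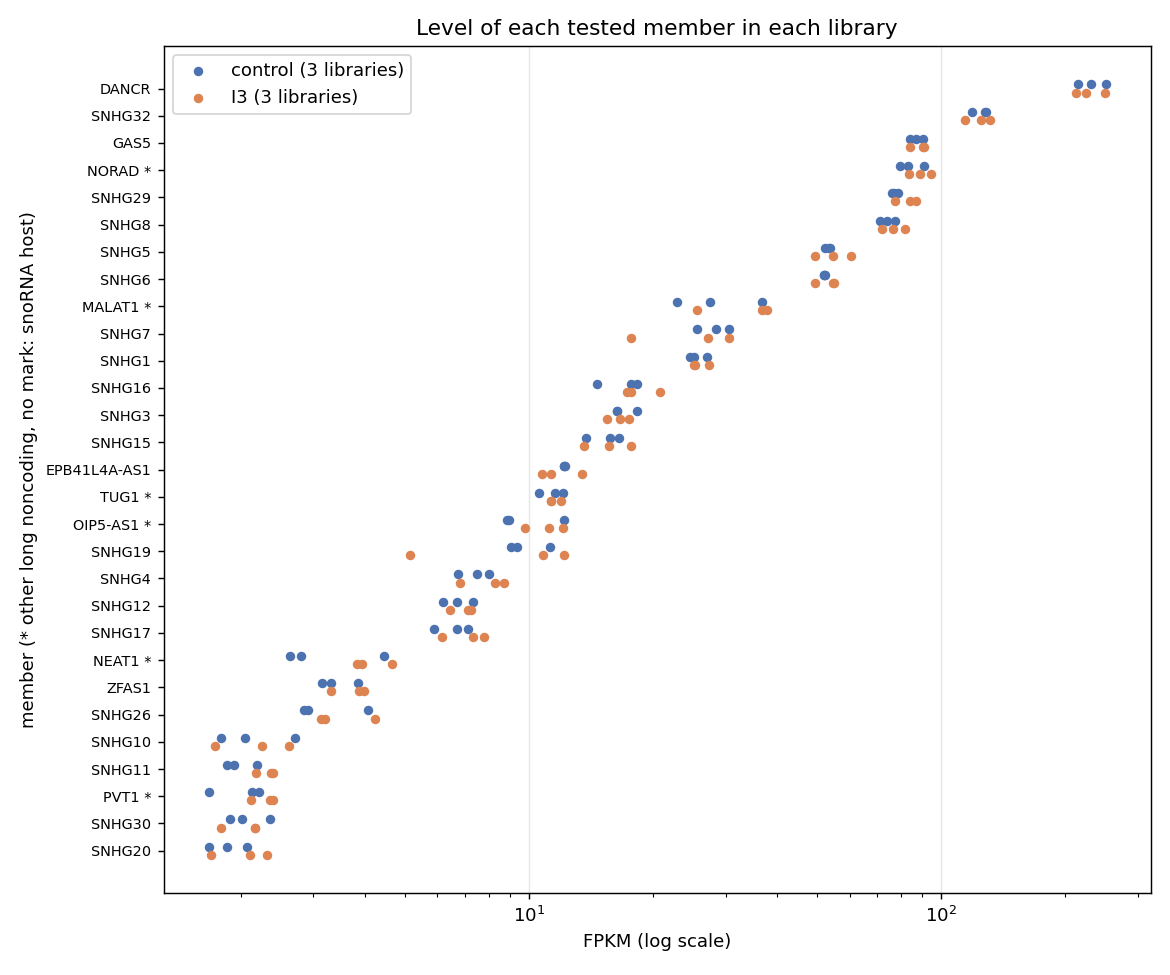
Each point is the FPKM of 1 member in 1 library on a log axis, blue for the 3 control and orange for the 3 I3 libraries, with members ordered by their mean and the other long noncoding RNAs marked by a star. The 29 tested members span 1.95 to 230.3 FPKM, and the control and I3 points of every member overlap.

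DANCR (chr4:52712404-52720351 on GRCh38, GENCODE release 29) had 214, 250.4 and 230.3 FPKM in control 1, 2 and 3, and 212, 249.5 and 225 FPKM in I3 1, 2 and 3. Both groups covered the same range, and every DANCR value lay above every SNHG32 value. SNHG32, which GENCODE 29 names C6orf48 and types as protein coding, had 119, 129 and 128 FPKM in control and 125, 131 and 114 FPKM after I3. Its highest and lowest values were both I3 libraries. Part of its exon length, 23.2%, is shared with another gene model on the same strand.

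GAS5, the host of a cluster of box C/D snoRNAs and an RNA that accumulates in arrested cells, had 86.6, 83.9 and 90.2 FPKM in control and 84.0, 90.2 and 90.7 FPKM after I3. The control values were 86.9 ± 3.16 and the I3 values 88.3 ± 3.74 FPKM (SD, n = 3 each), so its mean moved by less than 1 SD of either group. SNHG8 had 70.8, 77.1 and 73.7 FPKM in control and 76.4, 81.6 and 71.7 FPKM after I3, with overlapping groups. In the order of levels, DANCR and SNHG32 each stood clear of the next member. GAS5, NORAD, SNHG29 and SNHG8 followed, and each overlapped its neighbour in this order. SNHG5 and SNHG6 had means of 54.0 and 52.5 FPKM, again with overlapping ranges.

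The order depends on the length behind the FPKM, because host genes have many transcripts. The deposited FPKM corresponds to the length of all exons of a gene. At the median length of the transcripts, DANCR came to 703 FPKM, GAS5 to 462, SNHG29 to 383, SNHG32 to 299 and SNHG5 to 226. SNHG5 then took the place of SNHG8 among the 5 highest, and the other 4 were shared. This second length was chosen after the data had been seen.

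Among the other long noncoding members, NORAD was the highest, 2.78 times the level of MALAT1 per length of all exons. At the median transcript length the order turned round, with 574 FPKM for MALAT1 (a median of 480 bases), 167 for OIP5-AS1 and 86.7 for NORAD. The 480 bases come from 17 annotated transcripts of MALAT1, whose exons cover 8829 bases in 1 block. NORAD has 1 transcript of 5339 bases and kept its value. The reads of MALAT1 were counted over all its exon bases, so the value at 480 bases is not taken as its level. NORAD had 90.6, 79.6 and 82.8 FPKM in control and 88.9, 83.7 and 94.7 FPKM after I3. MALAT1 had 36.8, 22.9 and 27.5 FPKM in control and 36.7, 25.5 and 37.9 FPKM after I3. Each group thus held both high and low MALAT1 libraries, and the log2 fold change of MALAT1 was 0.20 ± 0.20 (SE).

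TUG1, a nuclear and cytoplasmic long noncoding RNA, was the steadiest of the other members by the ratio of its highest to its lowest library (1.14). TUG1 had 12.1, 11.5 and 10.6 FPKM in control and 11.3, 11.3 and 12.0 FPKM after I3. OIP5-AS1, also called cyrano, had 12.2, 8.87 and 8.98 FPKM in control and 11.2, 9.79 and 12.1 FPKM after I3. Its control 1 value was the highest of the 6. NEAT1 had 4.45, 2.80 and 2.64 FPKM in control and 4.65, 3.83 and 3.95 FPKM after I3, so that MALAT1 stood at 8.40 times the level of NEAT1 per length of all exons. At the median transcript length this ratio was 21.4, which rests on the short annotated transcripts of MALAT1. Control 1 again lay within the I3 range, whereas control 2 and 3 were below it.

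The remaining hosts covered 2.06 to 54.0 FPKM above SNHG20, and they varied less than NEAT1 and MALAT1, with a few exceptions. The ratio of the highest to the lowest library was at most 1.49 for all of the 23 tested hosts but 3. These 3 were SNHG10 with a ratio of 1.56, SNHG7 with 1.73 and SNHG19 with 2.36. SNHG1, the host of 9 annotated snoRNAs, had 25.6 ± 1.28 FPKM in control and 25.9 ± 1.21 FPKM after I3 (SD, n = 3 for each value here). SNHG3 had 17.0 ± 1.10 and 16.5 ± 1.03 FPKM, and SNHG15 had 15.3 ± 1.45 and 15.6 ± 2.04 FPKM. In all 3 the means differed by less than 1 SD of either group.

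SNHG6 and EPB41L4A-AS1 were tight in control, at 52.0 ± 0.247 and 12.2 ± 0.0239 FPKM, and wider after I3, at 53.0 ± 3.18 and 11.8 ± 1.43 FPKM (SD, n = 3 each). SNHG5 did the same, with 53.2 ± 0.752 and 54.8 ± 5.45 FPKM. The spread of the groups was not tested. SNHG4, SNHG12 and SNHG17 were at means of 7.67, 6.83 and 6.83 FPKM over the 6 libraries. ZFAS1, a host of SNORD12 genes, was at 3.58 FPKM and SNHG26 at 3.40 FPKM, and SNHG10, SNHG11, SNHG30 and SNHG20 were at 1.95 to 2.19 FPKM. Between neighbours in this order the ranges parted at SNHG17 above NEAT1 and at SNHG26 above SNHG10, and they overlapped elsewhere below SNHG19.

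EPB41L4A-AS1 shared 49.6% of its exon length with EPB41L4A on the opposite strand. That gene was at most 0.0327 FPKM in any library. SNHG4 shared 14.0% with MATR3 and SNHG20 7.6% with SEC14L1 on the same strand, so reads of those stretches cannot be assigned with certainty. The sources used here do not say whether reads were counted by strand.

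The I3 libraries were compared with the control libraries to ask whether the inhibitor changed the members. No member passed the test. In limma with Benjamini-Hochberg adjustment over 12960 genes, 0 of 29 members had an adjusted p under 0.05 with a log2 fold change of at least 0.58, and the smallest adjusted p of a member was 0.998. Among all genes tested the same call was made for 0.0%. At these thresholds the study reported genes changed in both directions, from DESeq on its own estimates. At an unadjusted p under 0.05, limma called 0 of 29 members higher and 0 of 29 lower, against 4.93% of all genes, namely 2.08% higher and 2.85% lower. The 3 I3 values lay entirely above or below the 3 control values for 0 of 29 members, against 9.7% of all genes. In a simulation, values were drawn as independent noise with the mean and spread of each gene. The test recovered 88% of 100 genes moved by a log2 of 1 and 94% of 100 moved by a log2 of 2. Trends shared by the genes of a library were not simulated, and neither was a change at the fold threshold.

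Fold changes are given on the log2(FPKM + 0.5) scale as I3 minus control. They ran from −0.19 for SNHG7 to 0.32 for NEAT1, with a median of 0.038, against 0.011 over all tested genes. Of the members 22 were above 0 and 7 below, and 54.2% of all genes were above 0. The hosts had a median of 0.026, with 16 above and 7 below 0. All 6 other long noncoding members were above 0, with a median of 0.15. The 95% interval of the change lay within ±0.58 for 25 of 29 members, against 81.6% of all genes. For each of these 25, taken singly and on this scale, the interval excludes a change as large as the fold threshold. The intervals were not adjusted for the number of members. The added 0.5 also pulls low levels towards 0, as SNHG11 was at 0.18 here and at 0.21 with 0.1 added. The 4 whose interval reached past it were NEAT1, MALAT1, SNHG7 and SNHG19. The median standard error was 0.10 both for the members and for all genes. In these bulk libraries, fewer cells with an RNA and less of it per cell cannot be told apart.

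**Figure D2:**
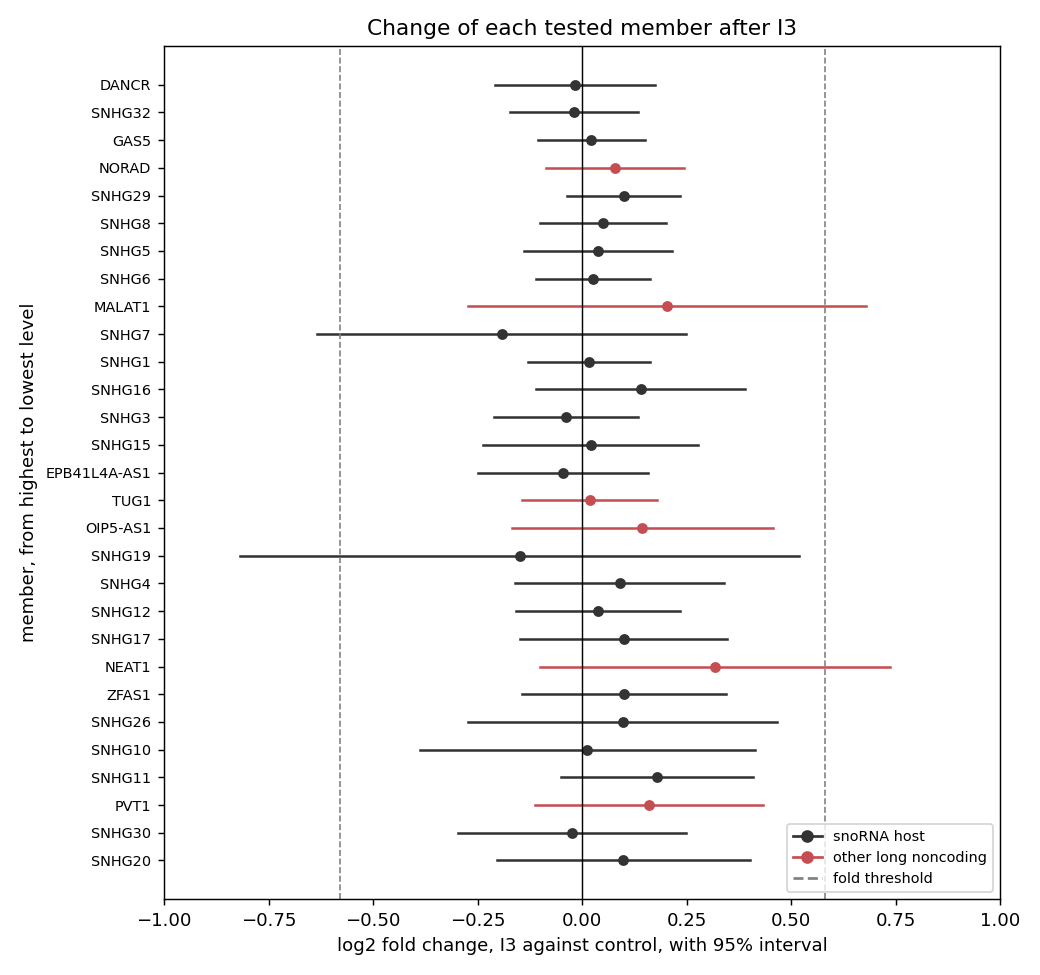
Points give the log2 fold change of each tested member, I3 against control, and lines its 95% interval, with hosts in black and other long noncoding RNAs in red. Dashed lines mark −0.58 and 0.58. Every interval includes 0, and 25 of 29 lie between the dashed lines.

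None of the hosts with a TOP start in RefSeq passed the test. Their log2 fold changes were −0.020 for SNHG32, 0.038 for SNHG5, 0.090 for SNHG4, 0.037 for SNHG12, −0.15 for SNHG19 and 0.099 for ZFAS1, and DANCR and GAS5 were at −0.017 and 0.022. The summed FPKM of all hosts was 862 ± 28.2 in control and 870 ± 57.3 after I3 (SD, n = 3 each). The sum over the other members was 141 ± 16.1 in control and 152 ± 13.4 after I3 (SD, n = 3 each).

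The 5 members with the smallest unadjusted p were SNHG11, NEAT1, SNHG29, PVT1 and SNHG16, all above 0. SNHG11, a host on chromosome 20, had 1.85, 2.20 and 1.93 FPKM in control and 2.17, 2.38 and 2.40 FPKM after I3, from 92 to 123 reads. Only control 2 reached into the I3 range. The log2 fold change of SNHG11 was 0.18 ± 0.098 (SE), with an adjusted p of 0.998 in limma. NEAT1 rested on 1050 to 1888 reads, and its log2 fold change was 0.32 ± 0.18 (SE), with an adjusted p of 0.998 in limma. Without control 1 the change of NEAT1 was 0.53 and reached an unadjusted p of 0.0020 in limma (adjusted p 0.378). With each other library left out in turn, the change of NEAT1 was 0.20 to 0.37 and it was not called, the lowest value being that without control 3. Without control 1, OIP5-AS1 was at 0.29 with an unadjusted p of 0.022 in limma, and 10.96% of all genes then had an unadjusted p under 0.05.

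SNHG29, named LRRC75A-AS1 in GENCODE 29, had 77.0, 78.3 and 75.8 FPKM in control and 84.1, 86.7 and 77.2 FPKM after I3. The third I3 library lay inside the control range. SNHG29 had a log2 fold change of 0.10 ± 0.058 (SE), and the interval of −0.035 to 0.24 bounds it closely. Without I3 3 it was 0.15, with an unadjusted p of 0.032 in limma (3.62% of all genes under 0.05). PVT1, the long noncoding neighbour of MYC, had 2.13, 1.68 and 2.22 FPKM in control and 2.13, 2.40 and 2.35 FPKM after I3. Control 2 was the low value, and the log2 fold change was 0.16 ± 0.12 (SE). SNHG16 had 14.6, 18.3 and 17.7 FPKM in control and 17.3, 20.8 and 17.7 FPKM after I3, and its control 1 was the lowest of the 6. SNHG16 had a log2 fold change of 0.14 ± 0.11 (SE).

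In SNHG7 and SNHG19, the hosts with the most negative changes, a single library set the direction. SNHG7 had 25.6, 30.6 and 28.4 FPKM in control and 27.2, 30.6 and 17.7 FPKM after I3. SNHG19 had 11.3, 9.04 and 9.36 FPKM in control and 12.1, 10.8 and 5.14 FPKM after I3. Both were lowest in I3 3. Without I3 3 the log2 fold change of SNHG7 went from −0.19 to 0.037 and that of SNHG19 from −0.15 to 0.21. With the GC trend removed and all libraries kept, the changes were −0.16 for SNHG7 and −0.13 for SNHG19.

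The libraries differed in a property that does not follow the groups, and members split by it about as often as other genes. Over 12939 genes, the deviation of a library from the mean of all 6 correlated with the GC content of the gene, with a rank correlation of −0.31, 0.45 and 0.34 in control 1, 2 and 3 and −0.23, 0.26 and −0.45 in I3 1, 2 and 3. The genes within a library share its preparation and are not replicates. Control 1, I3 1 and I3 3 therefore had the negative sign, which was more frequent after I3 than in control. NORAD, MALAT1, OIP5-AS1 and NEAT1 were higher in all 3 of these libraries than in any of the other 3, at ratios of the means of 1.11, 1.47, 1.28 and 1.41. The same split was present in 17.1% of all tested genes. In the opposite direction, DANCR, SNHG32, SNHG7, SNHG15 and EPB41L4A-AS1 were lower in all 3, against 13.2% of all genes. As 4 and 5 of 29, these shares are close to those of all genes. No host was among the 4 higher members, and no other long noncoding RNA among the 5 lower ones. Taken by kind, these were 4 of the 6 other members and 5 of the 23 hosts. The GC content was 39.3% to 47.1% in the 4 higher members and 48.6% to 59.9% in the 5 lower ones, with a median of 49.3% over all tested genes.

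**Figure D3:**
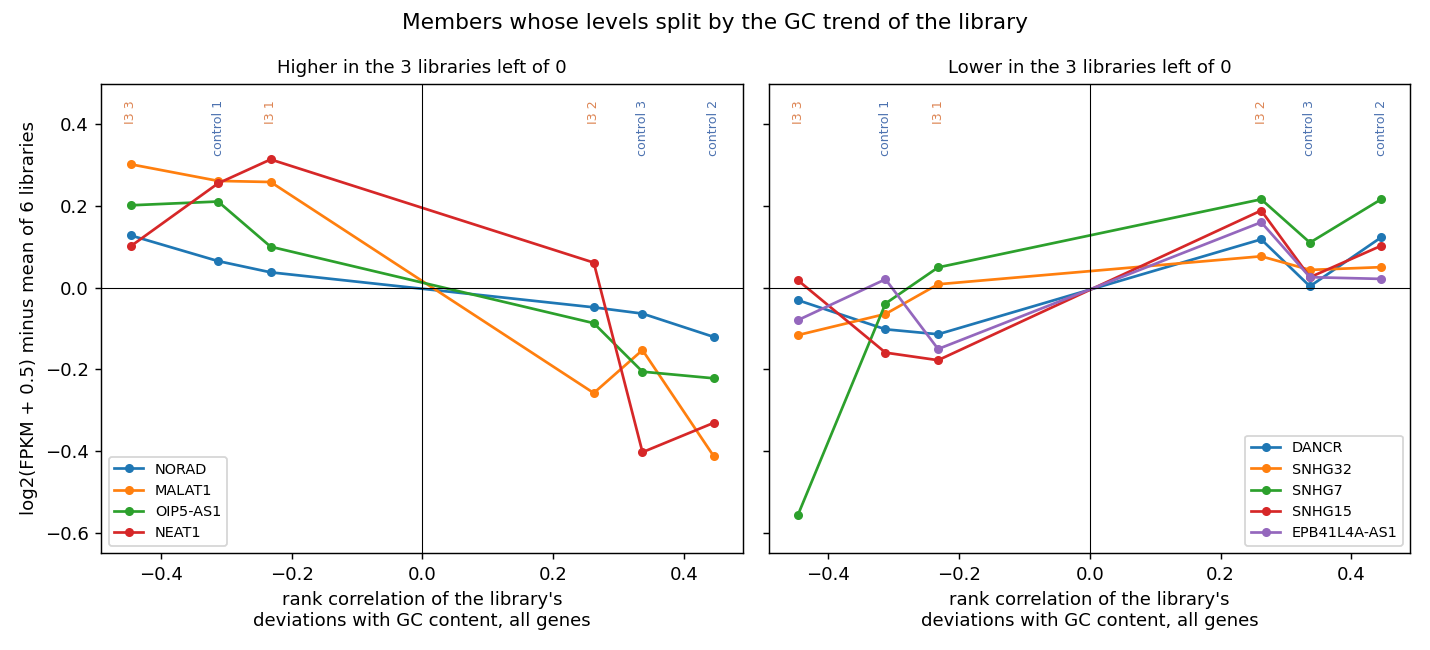
Each line is 1 member, its log2(FPKM + 0.5) in each library minus its mean over the 6 libraries, against the rank correlation of that library's deviations with GC content. NORAD, MALAT1, OIP5-AS1 and NEAT1 are higher in I3 3, control 1 and I3 1, left of 0, and 5 hosts are lower there.

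Read within the libraries of each sign, MALAT1 in control 1 (36.8 FPKM) stood beside 36.7 and 37.9 FPKM in I3 1 and I3 3, and MALAT1 in control 2 and 3 (22.9 and 27.5 FPKM) stood on either side of 25.5 FPKM in I3 2. NEAT1 in control 1 (4.45 FPKM) likewise lay between 4.65 and 3.95 FPKM, but I3 2 (3.83 FPKM) lay above control 2 and 3 (2.80 and 2.64 FPKM). Removal of the GC trend lowered the spread of NORAD over the 6 libraries from an SD of 0.093 to 0.032 on the log2 scale. For MALAT1 the SD went from 0.31 to 0.22, for OIP5-AS1 from 0.20 to 0.17 and for NEAT1 from 0.30 to 0.28. This was not general, since the SD fell in 11 of the 23 tested hosts and 5 of the 6 other members, and it rose for GAS5 from 0.052 to 0.078 and for SNHG8 from 0.075 to 0.13. With the trend removed, the log2 fold change of NORAD went from 0.079 to 0.029 and that of MALAT1 from 0.20 to 0.14. TUG1 went from 0.018 to −0.031, OIP5-AS1 from 0.14 to 0.12, NEAT1 from 0.32 to 0.30 and PVT1 from 0.16 to 0.15. SNHG11 was then at 0.21 with an unadjusted p of 0.044 in limma, and 5.88% of all genes had an unadjusted p under 0.05. In the values without removal of the GC trend, I3 2 held the highest value of 11 of the 23 tested hosts and I3 3 the lowest value of 7.

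Members below the minimum were close to the detection limit of these libraries, apart from the very long KCNQ1OT1. HOTAIRM1, a myeloid long noncoding RNA of the HOXA cluster, had 0.303, 0.451 and 0.306 FPKM in control and 0.188, 0.338 and 0.184 FPKM after I3, which is 8, 12 and 8 reads against 5, 9 and 5. The groups overlapped, and a two-sided exact permutation test gave p = 0.3, where 0.1 is the smallest p that 3 against 3 allows. KCNQ1OT1 was at 0.145 to 0.199 FPKM from 236 to 324 reads, spread over 91667 bases of exon. MIAT, SNHG22, SNHG28 and SNHG14 had means of at most 0.0252 FPKM, and SNHG31, SNHG21 and SNHG9 had means of 0.426, 0.320 and 0.188 FPKM with overlapping groups.

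In 1 of these 10 members, SNHG25, the reads of the groups did not overlap, and they were lower after I3, as in 1.38% of the 13580 genes under the minimum. SNHG25 had 3, 1 and 1 reads in control and 0 in all 3 I3 libraries, and its exact permutation p was 0.1. Each of these counts lies at or under the floor of 3 counts, so no fold is given. SNHG14, the host of the Prader-Willi snoRNA clusters, had 2, 3 and 1 reads in control and 0, 1 and 0 after I3. Control 3 and I3 2 tied at 1 read, and the exact permutation test on the reads gave p = 0.2. Counts this low cannot show a difference at this depth. Of the exon length of SNHG25, 48.6% is shared with an annotated small RNA on the same strand, and SNORD104 within SNHG25 had 18 reads in control and 31 after I3, with overlapping groups.

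The snoRNAs inside the hosts were read next, because they are made from the same precursor. GENCODE 29 and RefSeq place 153 snoRNA or scaRNA loci within the 30 hosts and none within the other members. SNHG14 holds 85 of them and GAS5 11. Of these genes 19 had a row in the table, in 13 hosts, and they held 376 reads in control and 434 after I3, 118 to 149 reads per library. Their genes span 70 to 275 bases, and mature snoRNAs carry no poly(A) tail, so a library of polyadenylated RNA measures them poorly. RefSeq gives no strand here, and for 2 snoRNAs in GAS5 the position came from RefSeq alone.

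SNORA73B in SNHG3 had the most reads, 38, 28 and 33 in control and 47, 44 and 47 after I3. All 3 I3 values were higher, with a log2 fold change of 0.45 ± 0.11 (SE) and an unadjusted p of 0.0041 in limma (adjusted p 0.700). Its host SNHG3 had a log2 fold change of −0.039. SNORA26 in DANCR had 8, 15 and 9 reads in control and 26, 17 and 17 after I3, again without overlap. Its log2 fold change was 0.84 ± 0.24 (SE), with an unadjusted p of 0.0099 in limma (adjusted p 0.812), while DANCR was at −0.017. SNORA71B in SNHG17 had 20, 25 and 25 reads in control and 22, 19 and 19 after I3, and these overlapped. Its log2 fold change was −0.22 ± 0.11 (SE), and −0.31 without control 1, with an unadjusted p of 0.012 in limma. Without each other library it ran from −0.28 to −0.16 and was not called. None of these passed the adjusted test.

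**Figure D4:**
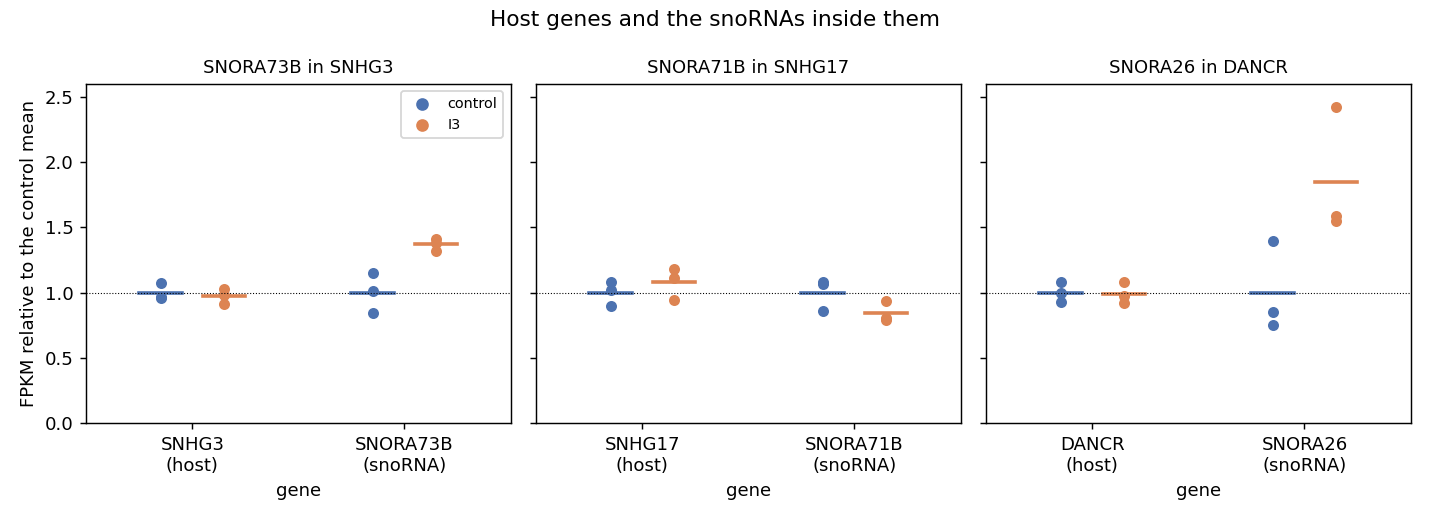
Points give the FPKM of 3 host genes and of the snoRNA inside each, divided by the control mean of that gene, for the 3 control (blue) and 3 I3 (orange) libraries, with bars at the group means. SNORA73B and SNORA26 lie higher in all 3 I3 libraries, and their hosts SNHG3 and DANCR overlap between the groups.

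Of the 14 nested snoRNAs that reached the minimum, 2 had an unadjusted p under 0.05, both higher, against 2.08% of all genes in that direction, and 7 were above and 7 below 0. These 2 were also those whose reads were apart between the groups, against 9.7% of all genes by FPKM. SNORA74D in SNHG4 had 4, 2 and 1 reads in control and 1, 1 and 0 after I3, and was apart by FPKM but tied in reads. With voom on the rebuilt reads, the unadjusted p of SNORA73B in limma was 0.083.

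Proteins that act on the members were read from lists of the pathway. Of 8 snoRNP core proteins, which form the snoRNA particles, limma called 0 higher and 0 lower at an unadjusted p under 0.05, and the smallest p belonged to NOP56. NOP56, a core protein of box C/D particles, had 39.9 ± 0.853 FPKM in control and 38.2 ± 1.37 FPKM after I3 (SD, n = 3 each). Of 14 nonsense-mediated decay factors, likewise 0 were higher and 0 lower. SMG1, the kinase of UPF1, had the smallest p of these and did not overlap between groups, with 6.85, 6.89 and 7.47 FPKM in control and 7.64, 7.68 and 7.59 FPKM after I3. Groups without overlap were found for 1 of the 14, against 9.7% of all tested genes. The log2 fold change of SMG1 was 0.10 ± 0.063 (SE). Of the 14 factors 9 were above 0 and 5 below, with a median of 0.0095, close to that of all genes.

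Of 8 paraspeckle proteins, 0 were called higher and 1 lower at the unadjusted p, against 2.08% and 2.85% of all genes. This was PSPC1, a partner of NEAT1 in paraspeckles, with 12.1, 10.9 and 11.7 FPKM in control and 11.1, 9.74 and 9.41 FPKM after I3. Its log2 fold change was −0.19 ± 0.079 (SE), with an unadjusted p of 0.046 in limma and an adjusted p of 0.998. The call was lost without control 1, control 3, I3 2 or I3 3, at −0.16, −0.18, −0.17 and −0.15. DAZAP1, an RNA-binding paraspeckle protein, was not called, but its groups did not overlap, with 20.8, 23.0 and 20.6 FPKM in control and 19.6, 20.3 and 19.0 FPKM after I3. Both Pumilio proteins were above 0 and neither was called. PUM2 had 35.1, 33.2 and 34.7 FPKM in control and 35.3, 35.3 and 37.6 FPKM after I3, without overlap, at a log2 fold change of 0.069 ± 0.054 (SE). Groups without overlap were thus found for 1 of 8 paraspeckle and 1 of 2 Pumilio proteins, against 9.7% of all tested genes.

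Of the coding neighbours of the long noncoding members, 6 of 9 were tested, with 0 higher and 0 lower. CDKN1C, in the imprinted domain of KCNQ1OT1, had the smallest p at 0.613 ± 0.248 FPKM in control and 0.425 ± 0.105 FPKM after I3 (SD, n = 3 each). MYC stood at 349.9 ± 24.0 FPKM in control and 345 ± 21.0 FPKM after I3 (SD, n = 3 each). HOXA2, beside HOTAIRM1 and below the minimum, had 0.438, 0.366 and 0.372 FPKM in control and 0.320, 0.114 and 0.224 FPKM after I3, without overlap. How often genes under the minimum part in this way by FPKM was not counted, so the HOXA2 values are not read as a change.

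The libraries were of similar depth, with 17500320 to 17798678 reads in control and 17794813 to 18193373 after I3. All 7 markers of Kasumi-1 cells were above the minimum in these libraries, MPO at 7740 to 8612 FPKM, KIT at 198 to 225 FPKM and RUNX1T1 at 14.1 to 17.0 FPKM. Of 3 listed markers each, 3 of T cells, 2 of erythroid cells, 2 of megakaryocytes and 1 of fibroblasts had a row in the table. These had means under the minimum of the test, although CD3D reached 1.09 FPKM and GP9 0.505 FPKM in a library. CD79A reached 1.90 FPKM, and EPCAM stood at 28.2 to 31.6 FPKM while KRT18 was listed at 0. The part of these in the results was not tested.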

How the data were processed

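Total RNA of Kasumi-1 cells was used for stranded mRNA libraries, 3 from control cells and 3 after 0.25 μM I3 for 48 h. The submitters' processing notes name Trimmomatic, HISAT2, Cufflinks, HTSeq and hg38, and the study used DESeq on its own estimates. The authors deposited FPKM values, 1 column per library, so the main test used no count model. Voom on reads rebuilt from FPKM was an alternative. All 6 value columns were mapped, and 0 were left out.

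Gene identifiers were matched to GENCODE 29 (29703 of 29810 genes) and 23487 had a symbol. Reads were rebuilt from FPKM and exon length. Of 26609 genes above 0, 95.4% came out whole in all 6 libraries at a tolerance of 0.1 read, and of the 39 members 31 did, so the reads of the other 8, MALAT1, TUG1 and SNHG5 among them, are approximate. Read counts and floors cover counting error only. The depth was 17500320 to 18193373 reads.

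Genes averaging 0.5 FPKM or more were fitted as log2(FPKM + 0.5) without a covariate, using limma 3.58.1 under R 4.3.3 with a trended eBayes step. Its two-sided p-values were adjusted by Benjamini-Hochberg. Single values below the minimum used exact permutation tests. The procedure was tested on simulated data (4 unchanged genes called). Tables and figures were made with Python 3.11.15, pandas 2.3.3 and matplotlib 3.10.9. Members, lists and tests were chosen with earlier results of these data known. Values in every library are given for the 5 highest members of each kind, the 5 smallest p, members whose groups did not overlap, and GAS5, NEAT1, MALAT1 and HOTAIRM1. In each pathway list the gene with the smallest p is named. SNHG7, SNHG19, SNORA74D, DAZAP1, MYC and HOXA2 were named after their values had been seen.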

Additional observations from a re-analysis of the deposited data

How the results depend on the processing

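The comparison was repeated under 15 alternatives: pseudocounts of 0.1 and 1, no minimum FPKM, a minimum of 1, TPM, median-of-ratios scaling, removal of the GC trend, voom on rebuilt reads, the replicate block, and each library left out. In all 15, limma called 0 members at the adjusted p in either direction. The median log2 fold change of the members stayed above 0, at 0.0065 to 0.079 with a library left out. That of all genes was also above 0 in all 15, at 0.0015 to 0.024. Without I3 2 the median of the members, 0.0065, was below that of all genes, 0.0090. At the unadjusted p, 1 member was higher with the GC trend removed (SNHG11), 1 with voom (NEAT1, 0.37) and 1 with the replicate block (NEAT1, 0.32), where 5.88%, 4.87% and 6.60% of all genes had such a p in either direction. With a library left out, 0 to 2 members were higher and 0 lower, against 3.56% to 10.96% of all genes in either direction. The 2 were NEAT1 and OIP5-AS1 without control 1, the fit with 10.96% of all genes. With no minimum FPKM and with TPM, 1 was lower (SNHG25, on 5 reads), against 3.90% and 4.87% of all genes in either direction. The levels of NORAD and MALAT1 changed order at the median transcript length (a ratio of 0.151), which for MALAT1 is that of short annotated transcripts. The fitted change of SNHG25, on so few reads, is no bound. Equal replicate numbers of control and I3 correlated at 0.063, 0.15 and −0.024, so the numbers were not taken as pairs.

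Some changes close to 0 took the other sign. GAS5 was at −0.020 with the GC trend removed, and TUG1 at −0.031. With a library left out, the lowest and highest values were −0.081 and 0.041 for DANCR, −0.064 and 0.033 for SNHG32, −0.0027 and 0.058 for GAS5, −0.033 and 0.059 for TUG1, and −0.079 and 0.013 for SNHG3. For SNHG7 they were −0.35 and 0.037, and for SNHG19 −0.37 and 0.21. The cause was not tested. Depth limits the nested snoRNAs and the members below the minimum, which rest on few reads, and 3 libraries a group cannot bound the changes of NEAT1, MALAT1, SNHG7 and SNHG19 within the fold threshold.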
